A study of Arabidopsis thaliana with 2 samples.

Results

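The loci described here are those of the mitochondrial genome of *Arabidopsis thaliana*, chosen by their id alone, which starts with ATMG in the TAIR10 annotation. Of the 17419 loci listed for at least 1 of the replicates, 14 carried such an id. The data comprise 1 condition, wild-type central cells of the accession Landsberg *erecta* from the mature female gametophyte, isolated by laser-assisted microdissection (LAM) from flower sections. Each of the 2 replicates, CC1 and CC2, pooled about 450 cells, and cDNA was primed with poly(T) and amplified before SOLiD sequencing. The central cell is a gamete of the embryo sac, from which the endosperm develops once it is fertilized. There is a single condition, so the values are described without any test between groups.

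The plant mitochondrial genome encodes a small part of the respiratory chain and of the ATP synthase, together with ribosomal RNAs, some ribosomal proteins, tRNAs and factors of cytochrome c maturation. The other proteins of the organelle, including those that transcribe, splice, edit and degrade its RNA, are made from nuclear genes. Mitochondrial transcripts mostly lack a stable poly(A) tail, and short tails mark them for degradation. In *Arabidopsis*, a large part of the mitochondrial genome is also present as a copy on nuclear chromosome 2, so that a short read may match both genomes.

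The values are hits, that is alignments weighted by the uniquely aligned reads nearby and summed over the transcripts of a locus. They are estimated counts, and reads with several alignments were kept up to a limit. Where no uniquely aligned read lay near any alignment of such a read, all its alignments were discarded. A locus had at least 5 hits and at least 1 of them close to the 3′ end to be listed, so that an unlisted locus was not measured as 0. The listed hits summed to 15257122 in CC1 and to 14857500 in CC2. For each replicate, hits were scaled to 1000000 listed hits (HPM), without scaling by transcript length, so that the order of the loci is one of hits and not of molecules. The 6 marker genes of the central cell were listed in both replicates, with summed levels of 1573 HPM in CC1 and 1302 HPM in CC2. Of 6 markers of other cells, 4 were listed, with sums of 1937 and 1758 HPM. Of these, the egg cell gene *EC1.1* had 842 HPM in CC1 and 606 HPM in CC2, and *EC1.2*, also of the egg cell, had 94.0 and 63.2 HPM. *RBCS1A*, which encodes a small subunit of Rubisco of green tissue, had 1001 and 1077 HPM. Of the ovule tissue genes, *STK* had 172 hits (11.6 HPM) in CC2 only and *BEL1* was unlisted, and *MYB98* of the synergids was unlisted as well. The part of other cells in the levels of the mitochondrial loci was not tested.

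The chromosome 2 copy is described first, because reads from the copied sequence can match both genomes. In TAIR10.1, chromosome 2 held a block of 270728 bases (chr2:3239038-3509765), of which 99.6% matched the mitochondrial record of that assembly, with 99.9% identity over 17 alignments. Of all 50-base windows of the mitochondrial record, which is 367808 bases long, 70.5% also occurred without any difference in the nuclear chromosomes of TAIR10.1. In the chloroplast record 0.319% occurred, and 29.3% occurred in neither. The TAIR10.1 record is of the accession Columbia and may differ from the mitochondrial sequence the authors aligned to. It does not carry the ATMG ids, and 0 of the 14 ids were found in it. The ids could therefore not be paired with gene symbols, positions or lengths, apart from those named in notes to nuclear genes.

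The stretches below are shown because they make this identity visible at the level of a read. They are 100 bases each from nuclear loci of the block, read 5′ to 3′ on the strand of the locus, in TAIR10.1. Capitals mark a base that differs from the mitochondrial record or, in AT2G07813, the bases on either side of 6 bases that the nuclear copy lacks. Lower case marks identical bases.
AT2G07751 (chr2:3270008-3270107, plus strand, coding sequence): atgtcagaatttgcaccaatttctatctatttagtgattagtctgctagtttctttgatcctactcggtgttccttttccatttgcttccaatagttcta
AT2G07698 (chr2:3361878-3361977, plus strand, coding sequence): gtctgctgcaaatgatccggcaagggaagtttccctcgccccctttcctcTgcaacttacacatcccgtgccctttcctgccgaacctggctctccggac
AT2G07708 (chr2:3387351-3387450, plus strand, coding sequence): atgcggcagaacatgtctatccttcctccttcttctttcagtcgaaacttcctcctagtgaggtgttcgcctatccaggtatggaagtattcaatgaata
AT2G07811 (chr2:3337399-3337498, minus strand, pseudogene): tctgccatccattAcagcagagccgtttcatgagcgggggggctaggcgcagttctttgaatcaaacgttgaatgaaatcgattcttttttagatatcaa
AT2G07813 (chr2:3353763-3353862, plus strand, pseudogene): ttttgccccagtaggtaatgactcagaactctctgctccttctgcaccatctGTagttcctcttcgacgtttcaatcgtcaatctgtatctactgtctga
AT2G07751 is annotated as chain 3 of NADH dehydrogenase, and all of its 357 bases were identical to the mitochondrial record. AT2G07698, annotated as the alpha subunit of the ATP synthase, differed at 1 of 2665 bases. AT2G07708, whose best protein match in its note is ATMG00500, differed at 1 of 1310 bases, and AT2G07811, a pseudogene of a mitochondrial protein, differed at 2 of 620 bases. AT2G07813 is noted as a pseudogene of ATMG01260 and had no substitution over its 612 bases. A read that falls between such differences matches both genomes equally well.

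Listing was uneven between the replicates. CC1 listed 8 of the 14 mitochondrial loci and CC2 listed 13. Of the 14, 7 (50%) were listed in both replicates, beside 77.1% of all 17419 loci. A single locus was listed in CC1 only, where the share over all loci was 5.90%, and 6 were listed in CC2 only, where it was 17.0%. The locus found in CC1 only was ATMG00340, with 18 hits or 1.18 HPM. Those found in CC2 only were ATMG00690 with 167 hits (11.2 HPM), ATMG00500 with 149 hits (10.03 HPM), ATMG01350 with 30 hits (2.02 HPM), ATMG01360 with 20 hits (1.35 HPM), ATMG00070 with 18 hits (1.21 HPM) and ATMG01260 with 17 hits (1.14 HPM). The median of these 6 was 25 hits, beside 40 hits for the 2965 loci of all genomes listed in CC2 only. All but ATMG00690 and ATMG00500 had at most 30 hits. The paper reports that the cDNA of CC1 was slightly smaller in size and lower in yield than that of CC2. It also reports some fungal contamination of the CC1 RNA, which it considers unlikely to have affected the alignments. The part of these library differences in the listing and in the levels was not tested.

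**Figure D1:**
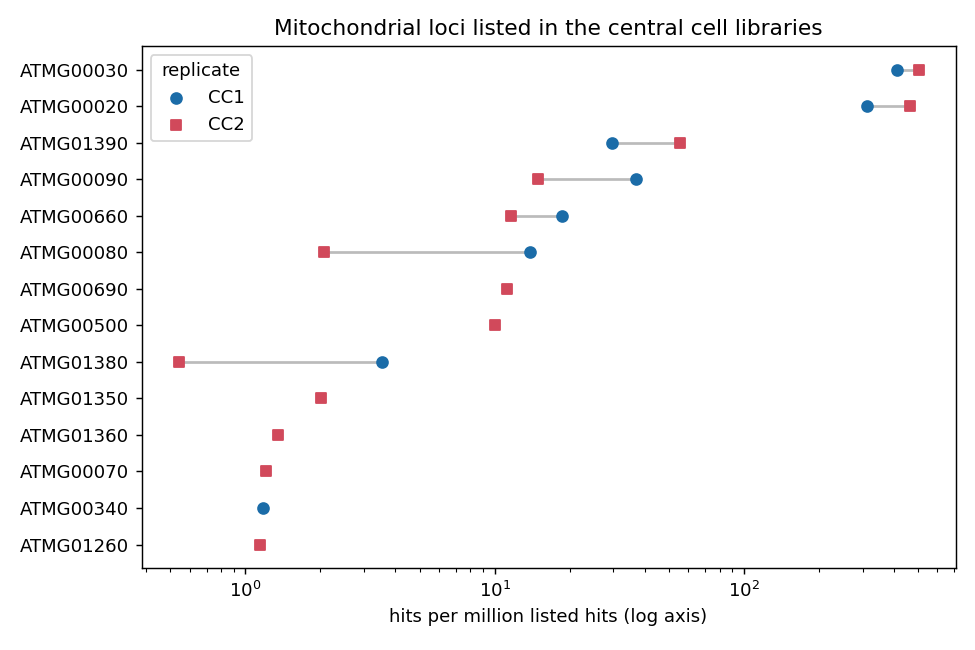
Levels of the 14 mitochondrial loci in hits per 1000000 listed hits on a log axis, with circles for CC1 and squares for CC2, and a grey line joining loci listed in both. ATMG00030 and ATMG00020 were at 313 to 503 in both replicates, and the highest value of the other loci was 55.4.

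The hits were concentrated on 2 loci. ATMG00030 had 6310 hits in CC1 and 7479 hits in CC2, which is 414 and 503 HPM and a mean of 458 ± 63.5 HPM (SD, n = 2). ATMG00020 had 4776 hits in CC1 and 6917 hits in CC2, or 313 and 466 HPM, with a mean of 389 ± 108 HPM (SD, n = 2). The levels of both loci overlapped between the replicates, so that their order is not separated by the spread, although ATMG00030 was the higher in each replicate. Both were also high among all loci: ATMG00030 ranked 355th in CC1 and 247th in CC2, and ATMG00020 ranked 506th and 278th. Together they held 87.5% of the hits on mitochondrial loci in CC1 and 89.7% in CC2. The sources used here give no product for either id.

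A gap separated these from the next loci. ATMG01390 had 450 hits in CC1 and 822.995 in CC2, with a mean of 42.4 ± 18.3 HPM (SD, n = 2). ATMG00090 had 563 and 221 hits, with a mean of 25.9 ± 15.6 HPM, and ATMG00660 had 285 and 173 hits, with a mean of 15.2 ± 4.98 HPM. The order of these neighbours was not stable: ATMG00090 was above ATMG01390 in CC1, at 36.9 against 29.5 HPM, and below it in CC2, at 14.9 against 55.4 HPM. The 5 loci with the most hits held 97.8% of the mitochondrial hits of CC1 and 97.3% of those of CC2. The other 12 loci besides the leading pair summed to 104 HPM in CC1 and to 112 HPM in CC2, although only 5 of them were listed in both replicates. The median level of the listed mitochondrial loci was 24.1 HPM in CC1 and 10.03 HPM in CC2.

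All 14 loci together had 12668 hits in CC1 and 16053 hits in CC2. This was 0.0830% of the listed hits of CC1 and 0.108% of those of CC2, with a mean of 0.0955% ± 0.0177 (SD, n = 2). The sum was thus 1.30 times as high in CC2 as in CC1. The leading pair accounted for most of this difference, since their own sum was 727 HPM in CC1 and 969 HPM in CC2, while that of the other 12 loci differed by 1.08 times. With a single library on each side, this is a difference between libraries.

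Of the 7 loci listed in both replicates, 3 differed more than 2-fold between the replicates, and all were higher in CC1. Over all 13426 loci listed in both, 15.5% were more than 2-fold higher in CC1 and 14.7% were more than 2-fold higher in CC2. ATMG00080 had 212 hits in CC1 and 30.8 hits in CC2, which is 13.9 and 2.08 HPM and a 6.70-fold difference. The hits of ATMG01380 were 54 in CC1 and 8 in CC2, a 6.57-fold difference that rests on few hits in CC2. ATMG00090 was 2.48-fold higher in CC1. None of the 7 was more than 2-fold higher in CC2, where the nearest was ATMG01390 at 1.88-fold, followed by ATMG00020 at 1.49-fold and ATMG00030 at 1.22-fold. ATMG00660 was 1.60-fold higher in CC1. For comparison, all loci with a mean of 100 to 1000 hits had a median difference of 1.56-fold and a 90th percentile of 3.73-fold, so that ATMG00090, ATMG00660 and ATMG01390 lay within that range and ATMG00080 lay outside it. For loci with 1000 to 10000 hits the median was 1.22-fold and the 90th percentile 1.73-fold, a range that held both leading loci. Below 100 hits, where ATMG01380 lay, the 90th percentile was 7.06-fold.

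**Figure D2:**
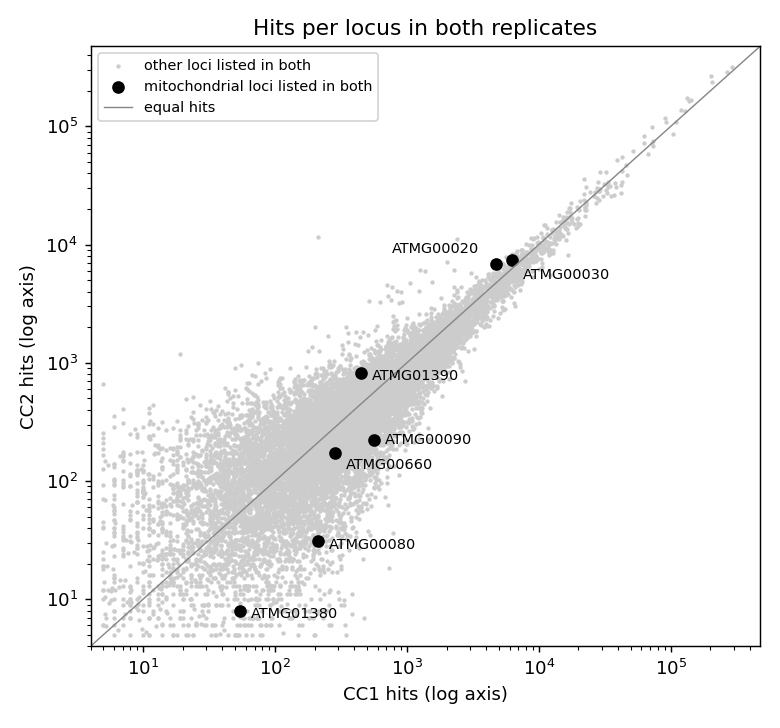
Hits per locus in CC1 and CC2 on log axes, with the 7 mitochondrial loci listed in both replicates in black, the other loci listed in both in grey and a line at equal hits. ATMG00030 and ATMG00020 lay above the line, and ATMG00080 and ATMG01380 lay farthest below it.

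Some hits were shared out between loci. A value that is not a whole number shows that weighted or ambiguous alignments entered it, and any deviation from a whole number as deposited was counted. This was the case for 3 of the 8 mitochondrial loci listed in CC1 and for 4 of the 13 listed in CC2, beside 24.4% and 25.0% of all listed loci. ATMG00020, ATMG00080 and ATMG00090 had such values in both replicates, and ATMG01390 in CC2 only, where its 822.995 hits were close to a whole number. The hits of ATMG00030 were whole numbers in both replicates.

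The listed loci were set beside what the nuclear annotation says of the copied region. The notes of nuclear genes in TAIR10.1 name 53 different mitochondrial loci as the best protein match or as the parent of a pseudogene. Of these 53, 2 were listed, ATMG00500 with 149 hits and ATMG01260 with 17 hits, both in CC2 only. ATMG00500 is annotated there as an unknown protein. The notes describe a product for 24 of the 53, and 0 of the 24 were listed. The sources used here give no product for mitochondrial ids outside the notes, so this count does not extend to them. The share of the other mitochondrial loci that were listed was not computed, because their full number is not known from the sources used here. Of the protein-coding nuclear loci outside the block, 60.7% were listed. The 24 unlisted mitochondrial loci with a product include ATMG00220 for apocytochrome b of complex III and ATMG00730 for subunit 3 of cytochrome c oxidase. Also unlisted were ATMG00990 for subunit 3 of NADH dehydrogenase and ATMG01190 for subunit 1 of the ATP synthase. The same holds for ATMG00210 for ribosomal protein L5 and ATMG00900 for a protein of cytochrome c biogenesis. The other 12 listed mitochondrial loci are in no such note, and they held all mitochondrial hits in CC1 and 98.97% of those in CC2. Reads from copied loci had several possible origins, and the rule for such reads was to weight or to discard them. Its part in this pattern was not tested, and low RNA levels and lost alignments cannot be told apart at unlisted loci.

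By the symbols of the TAIR10.1 record, the extent of the sharing differed between genes. Of its 33 annotated protein-coding genes, 16 had all their 50-base windows also in the nuclear chromosomes of TAIR10.1. In 5 genes no window occurred there, namely *atp4*, *ccmB*, *cox1*, *nad4L* and *nad9*. These shares are those of the assembly, and the copy in the Landsberg *erecta* plants was not examined. The genes of complex I were split, with 4 of 9 shared in full and 2 not shared, and for the ATP synthase 4 of 6 were shared in full and 1 was not. Of the 3 rRNA genes, *rrn26* and *rrn5* had no shared window, and *rrn18* had 0.371% of its windows shared. The 3 protein-coding genes with some but below 50% of their windows shared were *rps3* at 7.44%, *cox2* at 18.5% and *rpl16* at 34.6%. *rps3* and *rpl16* encode ribosomal proteins, but 4 of the 7 ribosomal protein genes were shared in full. None of these symbols could be paired with a listed ATMG id from the sources used here.

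**Figure D3:**
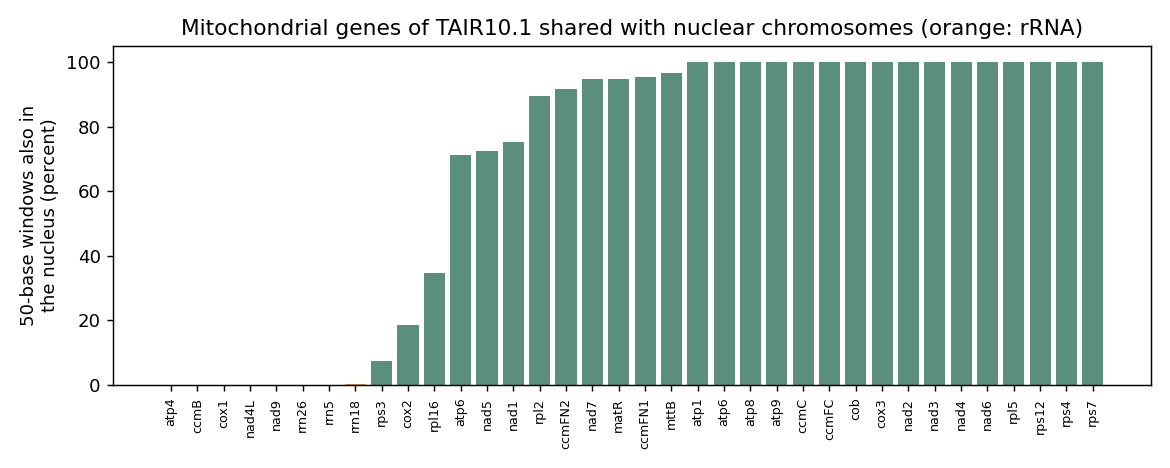
Percent of the 50-base windows of each protein-coding and rRNA gene of the TAIR10.1 mitochondrial record that also occur in the nuclear chromosomes of that assembly. There is one bar per gene in rising order (rRNA in orange, *atp6* present in 2 annotated copies). The 3 rRNA genes were at or near 0 percent, and 16 protein-coding genes reached 100 percent.

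The nuclear copy itself was examined next. Of 185 annotated loci in the chromosome 2 block that matched the mitochondrial record over at least 50% of their length, 5 were listed, with a sum of 144 hits (9.45 HPM) in CC1 and 398 hits (26.8 HPM) in CC2. Of the annotated nuclear loci of TAIR10.1 outside the block, 45.8% were listed in at least 1 replicate. The 5 were 2 of 94 protein-coding loci, where 60.7% were listed outside the block, 3 of 45 pseudogenes, where 8.50% were listed, and 0 of 46 RNA genes, where 2.01% were listed. The counts of pseudogenes and RNA genes were thus near those of the other nuclear loci, and that of protein-coding loci was below. TAIR10.1 annotates loci that TAIR10 may lack, and those could not be listed. AT2G07751, the copy of the NADH dehydrogenase chain shown above, had 273 hits in CC2 and was unlisted in CC1. AT2G07698, for the alpha subunit of the ATP synthase, had 36 hits in CC2 only, and AT2G07747, a pseudogene of an intron maturase, had 27 hits in CC2 only. AT2G07711, a pseudogene of NADH dehydrogenase 5B, had 114 hits in CC1 only. AT2G07811 was listed in both replicates, with 30.1 hits in CC1 and 61.3 hits in CC2. In 0 of the 55 noted pairs were the mitochondrial and the nuclear locus both listed. Only 2 of the 53 noted mitochondrial loci were listed, and the nuclear locus in only 2 pairs. With so few listed, the 0 does not show that listing of one copy excludes the other. ATMG00990 and ATMG01190 were unlisted where AT2G07751 and AT2G07698 were listed. AT2G07708 and AT2G07813 were unlisted where ATMG00500 and ATMG01260 were listed. Given the identity of the sequences, the genome of origin of these hits cannot be told apart from the values.

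**Figure D4:**
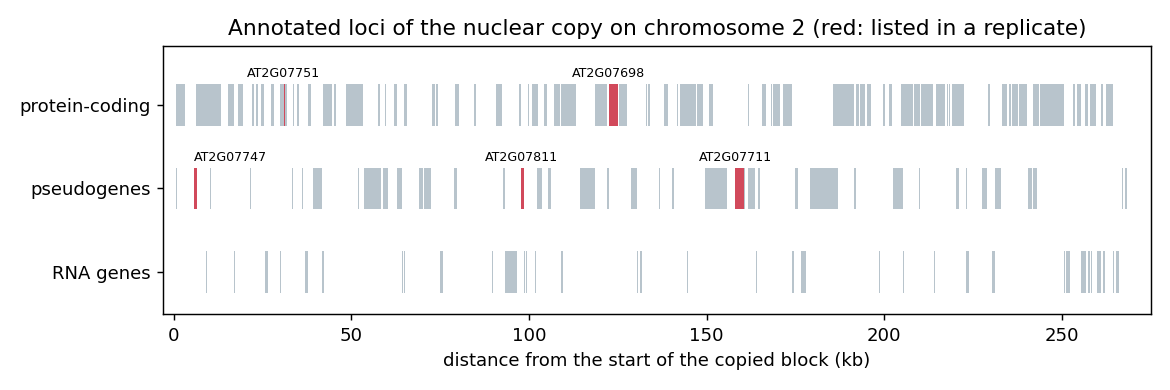
Annotated loci that match the mitochondrial record along the chromosome 2 block, by distance from its start in kb, in rows for protein-coding loci, pseudogenes and RNA genes. The 5 loci listed in a replicate are in red, and the other 180 are in grey.

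The id prefix of the region was a poor guide to the copy. Of the 15 listed nuclear loci with ids that start with AT2G07, the 5 with the highest levels lay outside the block and are genes of other nuclear functions. They were *CAS1* (AT2G07050), for cycloartenol synthase of sterol synthesis, with a mean of 222 HPM, the protein kinase locus AT2G07180 with 188 HPM, the SH3 domain locus AT2G07360 with 129 HPM, *MCM5* (AT2G07690), for a subunit of the replicative helicase, with 70.3 HPM, and *PFD1* (AT2G07340), for a prefoldin, with 38.4 HPM. Outside the block, AT1G65350 on chromosome 1 was the only listed locus that matched the mitochondrial record, with 6.42 hits in CC1 and 5.47 hits in CC2.

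The chloroplast loci, which are named by ATCG ids, were more numerous and held more hits. There were 86 of them, of which 57 (66.3%) were listed in both replicates, 14 in CC1 only and 15 in CC2 only. Over all loci these shares were 77.1%, 5.90% and 17.0%. The share listed in both was thus below that of all loci for the chloroplast loci as well. Their share of the listed hits was 0.799% in CC1 and 0.436% in CC2. In CC1 it was thus 9.63 times that of the mitochondrial loci and in CC2 4.04 times. The sums of both organelles moved in opposite directions between the replicates, the chloroplast sum being 1.83 times as high in CC1 and the mitochondrial sum 1.30 times as high in CC2.

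Nuclear genes whose products act in mitochondria were examined by chosen lists, which do not stand for all such genes. Most genes of these lists were listed in both replicates. Of 30 genes of oxidative phosphorylation, 27 were listed in both replicates, 1 in CC1 only and 2 in neither. Of those listed, 96.4% were listed in both, beside 77.1% of all listed loci. In at least 1 replicate, 60.7% of the protein-coding nuclear loci outside the block were listed. The 30 genes summed to 6283 HPM in CC1 and 5414 HPM in CC2. The highest mean levels were those of genes of the ATP synthase. AT5G08680, a beta subunit locus, had 1288 HPM in CC1 and 1109 HPM in CC2. Next came AT5G08690, another beta subunit locus, with 582 and 405 HPM, and AT1G51650, for the epsilon subunit, with 494 and 486 HPM, an order that changed between the replicates. The beta subunit locus AT5G08670 had 454 and 340 HPM, and *ATP3* (AT2G33040), for the gamma subunit, had 364 and 382 HPM, again in an order that changed. AT5G08680 alone thus had a higher level than all mitochondrial loci together in each replicate, with 1109 against 1080 HPM in CC2. Its hits were not whole numbers (19651.3 in CC1 and 16479.4 in CC2), nor were those of AT5G08670 and AT5G08690. Weighted or ambiguous alignments thus entered these values. Whether the small margin in CC2 rests on how they were shared out was not tested. *SDH3-2* (AT4G32210), for an anchor subunit of succinate dehydrogenase, had 2710 hits in CC1 and was unlisted in CC2. Its paralog *SDH3-1* and the iron-sulfur subunit *SDH2-1* were unlisted in both. Among all loci listed in CC1 only, the median was 48 hits. Being unlisted does not show that a transcript was absent. The part of the rule for reads with several alignments was not tested for these genes. Of the 27, 2 were more than 2-fold higher in CC1 and 1 was more than 2-fold higher in CC2. Over all loci listed in both, these shares were 15.5% and 14.7%.

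Of 18 nuclear genes for mitochondrial RNA and DNA upkeep, 16 were listed in both replicates, with a sum over the list of 918 HPM in CC1 and 861 HPM in CC2, close to the sum of the mitochondrial loci themselves. *MORF8* (AT3G15000), an RNA editing factor, was the highest, with 373 HPM in CC1 and 341 HPM in CC2. *PMH2* (AT3G22330), an RNA helicase, followed with 113 and 83.5 HPM. The editing factors *MORF1* (AT4G20020) and *MORF3* (AT3G06790) had 82.3 and 90.5 HPM and 63.0 and 75.7 HPM, and the polynucleotide phosphorylase AT5G14580, which degrades RNA, had 30.6 and 56.1 HPM. The intron maturase AT1G74350 was unlisted in both replicates, and *OSB1* (AT1G47720), a single-stranded DNA-binding protein, was listed in CC2 only, with 23 hits. Of the 16, 3 were more than 2-fold higher in CC1 and 0 in CC2, beside 15.5% and 14.7% of all loci listed in both. Of the 17 genes listed in at least 1 replicate, 94.1% were listed in both. This share was 50% for the mitochondrial loci and 77.1% for all listed loci. Whether it follows the level of hits was not tested.

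**Figure D5:**
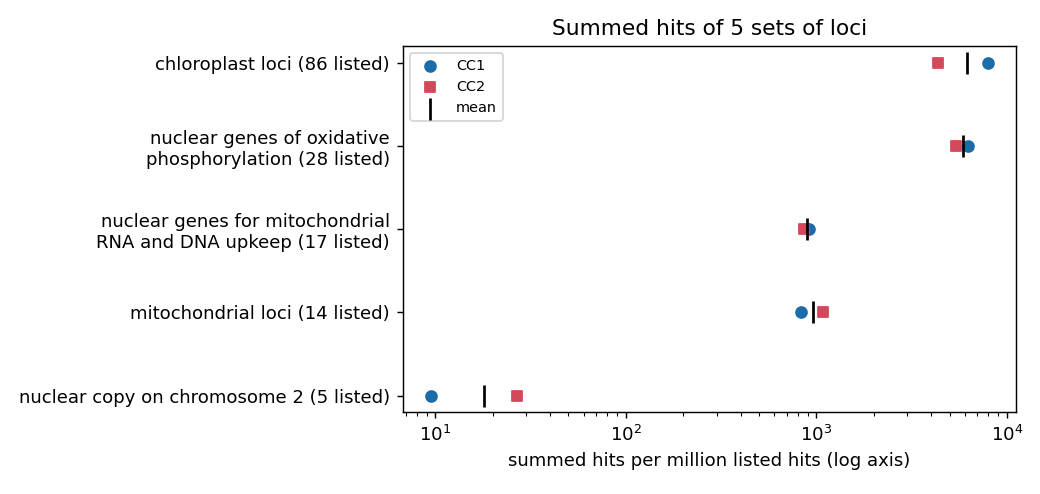
Summed hits per 1000000 listed hits of 5 sets of loci on a log axis, with circles for CC1, squares for CC2 and a bar for the mean of both replicates. The mitochondrial loci summed to 830 in CC1 and 1080 in CC2, and the chloroplast loci to 7993 and 4361.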

How the data were processed

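The 2 deposited files hold, per the labels and the methods, the estimated counts (hits) of each locus, which the authors computed without normalization. Reads were corrected, aligned with TopHat 1.2 to TAIR10, weighted over multiple alignments and shared out between loci. Libraries were not stranded. The replicates were not pooled. The paper calls them biological replicates, and the labels do not say whether they came from separate plants. Amplified reads are not independent molecules.

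Hits per 1000000 listed hits were computed in Python 3.11.15 with pandas 2.3.3 and numpy 2.4.6. In sums, an unlisted locus entered as 0. SDs are over 2 replicates. A 2-fold rule described differences between replicates, and TMM factors came from edgeR 4.0.16 in R 4.3.3. The mitochondrial record of TAIR10.1 was matched to the chromosomes with blastn 2.17.0 (at least 99% identity over 200 bases) and in 50-base windows. Sequences are from the chromosomes of TAIR10.1 as held by RefSeq.

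Named were the 10 mitochondrial loci with the highest mean level, those listed in 1 replicate, the 3 largest folds in each direction with at least 50 hits in both, any with an annotated role, and the 5 highest of the AT2G07 loci and of each nuclear list with their unlisted genes. AT2G07 loci of the block and the noted loci were named after their values were seen. The loci and lists were chosen with earlier results of these data known. Alternatives were hit minimums, other denominators, scales and folds, whole-number hits, and leaving out each replicate.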

Additional observations from a re-analysis of the deposited data

How the results depend on the processing

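Leaving out each replicate gave 8 to 13 listed mitochondrial loci, against 14 in either, a share of listed hits of 0.0830% to 0.108% and a median level of 10.03 to 24.1 HPM, against 17.1 HPM as the mean of both. With whole numbers of hits only, 3 loci instead of 7 were listed in both replicates, the 5 leaders held 99.6% instead of 97.5% of the hits, and the first alone held 90.7% instead of 48.2%, since ATMG00020 has fractional hits and was left out. The share of listed hits of 0.0955% became 0.164% with the nuclear AT2G07 loci added and 0.0497% without ATMG00030. With a fold of 1.5 instead of 2, 1 locus instead of 0 was higher in CC2. The AT2G07 loci held 0.0687% of the listed hits, and the loci that match the mitochondrial record held 0.00185%. Adding only the loci of the chromosome 2 block, an alternative chosen after seeing the data, gave a share of 0.0973%. No paired analysis was possible because there is 1 group. With 2 libraries, loci of few hits cannot be placed beyond the listing minimum.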
